A study of Arabidopsis thaliana with 12 samples.

Results

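The chloroplast NADH dehydrogenase-like (NDH) complex was represented by 4 nuclear genes, NdhN (AT5G58260), CRR41 (AT1G51100), CRR21 (AT5G55740) and PIFI (AT3G15840). They were chosen by name, each with a role in the complex and a probe annotated to that gene alone, and with earlier results of these data known. NdhS, Cpn60beta4 and OTP85 have like roles and single-name probes but are not among the 4, and their values are given further on. The 4 genes are part of the 689 genes that could be named in this way among 3438 measured features, called probes here. Transcripts were measured on 12 arrays with total RNA from wild-type Arabidopsis thaliana of ecotype Columbia 0. Plants of the ML_4C group had spent 24 h in medium light at 4 °C, which the submitters call photoinhibitory, that is, light causes more damage to photosystem II than repair can offset. Plants of the ML_20C group were grown in medium light at 20 °C. Each group had 6 arrays, and neither the tissue nor the age of the plants is given in the labels.

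The NDH complex sits in the thylakoid membrane, takes electrons from ferredoxin on the stromal side and passes them to plastoquinone. It thereby drives cyclic electron flow around photosystem I and takes part in chlororespiration, which includes the reduction of plastoquinone in the dark. Its subunits come from plastid and nuclear genes, so its formation needs nuclear factors that edit plastid transcripts and assemble the stromal arm, and mutants in such factors were found by the loss of a rise in chlorophyll fluorescence after the light is switched off. NdhN is a subunit of the stromal arm, CRR41 is a stromal factor needed to assemble that arm, CRR21 is a pentatricopeptide repeat protein needed to edit the plastid ndhD transcript, and PIFI is a chloroplast protein needed for chlororespiration through the complex but is not a subunit.

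Values are deposited intensities on a linear scale, with a mean per array of 1.02 to 1.07 in ML_4C and 1.05 to 1.09 in ML_20C. How they were scaled is not given. Median intensity was 0.276 to 0.315 in ML_4C and 0.536 to 0.569 in ML_20C, so most probes had lower values in ML_4C, with a median log2 change of -0.74 over the 3378 probes above 0 on at least 1 array. Arrays 1 and 2, 3 and 4, and 5 and 6 of each group deviated together from their group mean, less closely in ML_4C. Within pairs, correlations over probes were 0.20 to 0.43 in ML_4C and 0.79 to 0.92 in ML_20C. For other arrays of the same group they were -0.68 to -0.08. Each such pair was therefore counted as 1 sample for means and SDs, and tests are given both over 12 arrays and over pair means. Nothing in the labels says that the pairs came from separate plants, so the p-values speak only to the spread between these samples, and that spread may be technical. If the paired arrays are repeats of 1 RNA, tests over 12 arrays, permutation tests included, give p-values that are too small. The 6 leaf and chloroplast markers (LHB1B2, PSBW, PSAN, PSBY, PRK and SBPASE) summed to 50.4 to 63.6 in ML_4C and 43.1 to 51.9 in ML_20C, and none was at 0 on any array. A sum follows its brightest members and does not speak for each marker. PSAN and SBPASE were lower in ML_4C, with log2 changes of -1.47 and -1.03 as deposited, and the other markers are not given singly. The 2 flower markers (SPL and AGL54) summed to 0.303 to 0.370 in ML_4C and 0.898 to 0.990 in ML_20C, and their part in the results below was not tested.

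The comparison asked how the level of these transcripts differed after a day of cold in the light. As deposited, all 4 genes were lower in ML_4C, from 1.51-fold for NdhN to 6.62-fold for PIFI. Each of the 4 passed an adjusted p of 0.05 as lower in limma over 12 arrays, where 59.9% of all probes did so. All 4 also passed in the fit on pair means, where 49.6% of probes were lower. In 3 of the 4, CRR41, CRR21 and PIFI, every ML_4C array lay below every ML_20C array, as did 48.9% of all probes. The genes differed in how far they stood from the other probes: NdhN and CRR41 changed about as much as the middle of the array, CRR21 somewhat more, and PIFI far more.

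**Figure D1:**
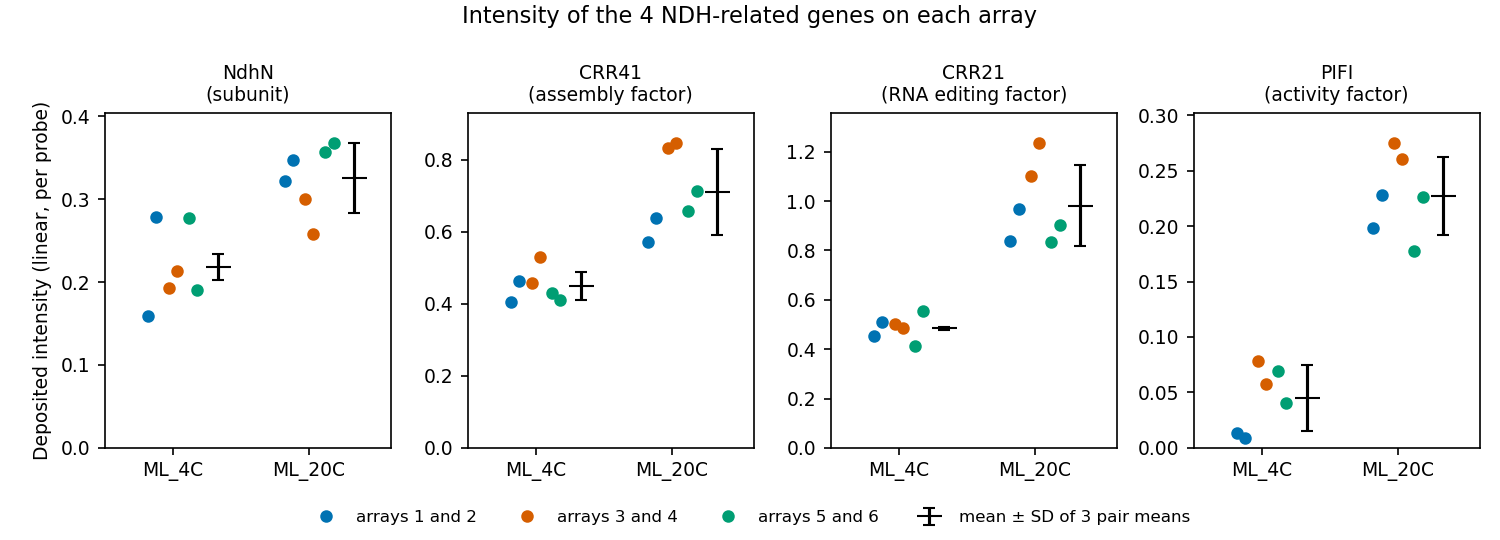
Deposited intensity (linear scale, vertical axis) of NdhN, CRR41, CRR21 and PIFI on each of the 6 ML_4C and 6 ML_20C arrays, coloured by array pair, with the mean and SD of the 3 pair means in black. The groups are separate for CRR41, CRR21 and PIFI and overlap for NdhN, and the PIFI values of ML_4C arrays 1 and 2 lie well below those of the other 4.

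NdhN, the subunit, had a lowest intensity of 0.159, a median of 0.203 and a highest of 0.278 in ML_4C, against 0.258, 0.334 and 0.367 in ML_20C. The groups overlapped, since 2 ML_4C arrays, arrays 2 and 5, stood above the lowest ML_20C array. Its pair means were 0.219, 0.203 and 0.234 in ML_4C and 0.334, 0.279 and 0.362 in ML_20C. That gives 0.218 ± 0.0155 in ML_4C and 0.325 ± 0.0423 in ML_20C (SD, n = 3 pairs each). Pair means did not overlap, although the 2 arrays of a pair differed by up to 0.81 on the log2 scale in ML_4C, more than the 0.18 between its highest and lowest pair. The log2 change was -0.59 ± 0.15 (SE of the fit on pair means), with an adjusted p of 0.0038 in limma over 12 arrays and 0.020 over pair means. Set against the median change over all probes, NdhN stood at 0.15, and 55.4% of probes had a lower log2 change.

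CRR41, the assembly factor, ranged over 0.406, 0.445 and 0.529 (lowest, median and highest) in ML_4C and over 0.572, 0.687 and 0.846 in ML_20C. The groups did not overlap, and arrays 3 and 4 were the highest in ML_20C, at 0.832 and 0.846. Means were 0.450 ± 0.0390 in ML_4C and 0.710 ± 0.119 in ML_20C (SD, n = 3 pairs each). The log2 change was -0.65 ± 0.17 (SE, pair means), a 1.57-fold fall, with adjusted p-values in limma of 0.00023 over 12 arrays and 0.021 over pair means. It stood 0.093 above the median change, and 53.7% of probes had a lower log2 change. NdhN and CRR41, a subunit and an assembly factor of the same arm, thus stood near the middle of all probes.

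CRR21, the RNA editing factor, had the most even pair means in the cold, at 0.481, 0.492 and 0.482 in ML_4C against 0.904, 1.17 and 0.868 in ML_20C. Yet the 2 arrays of a pair differed by up to 0.43 on the log2 scale in ML_4C. That is more than the 0.046 between its highest and lowest pair. Single arrays ran from 0.411 through a median of 0.492 to 0.554 in ML_4C and from 0.834 through 0.936 to 1.23 in ML_20C. The gap between the groups was wide, and as for CRR41 the ML_20C arrays 3 and 4 were the highest of their group. Means were 0.485 ± 0.00633 in ML_4C and 0.980 ± 0.164 in ML_20C (SD, n = 3 pairs each), and CRR21 fell 2.01-fold. Its log2 change was -1.01 ± 0.16 (SE, pair means), with adjusted p-values in limma of 8.07e-06 over 12 arrays and 0.0035 over pair means. Against the median change this was -0.26, and 40.5% of probes had a lower log2 change.

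PIFI, the activity factor, was at 0.0134 and 0.00906 on ML_4C arrays 1 and 2, at 0.0781 and 0.0576 on arrays 3 and 4, and at 0.0692 and 0.0408 on arrays 5 and 6. In ML_20C it ran from 0.177 through a median of 0.227 to 0.275. Thus all ML_4C arrays were far below all ML_20C arrays, and within ML_4C the first pair stood apart. The mean was 0.0447 ± 0.0297 in ML_4C and 0.228 ± 0.0352 in ML_20C (SD, n = 3 pairs each). The log2 change was -2.73 ± 0.70 (SE, pair means), with adjusted p-values in limma of 0.00045 over 12 arrays and 0.019 over pair means. Only 6.51% of probes had a lower log2 change, and against the median PIFI stood at -1.98.

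The size of the PIFI change rests in part on the first ML_4C pair and on very dim values. Without ML_4C arrays 1 and 2 the log2 change was -1.91, and it was -1.42 when 0.0680 was first added to every value. Both remained past the threshold over 12 arrays. The difference of arrays 1 and 2 from the other 4 ML_4C arrays was -2.44 for PIFI on the log2 scale. In the dimmest of 10 equal bins of probes by mean log2 intensity, which includes PIFI, the median of this difference was 0.021 and its 5th percentile -1.65. In ML_4C only 0.927% to 8.75% of the probes above 0 were dimmer than PIFI, against 8.39% to 18.3% in ML_20C. The other 3 genes showed no such gap, at -0.037 for NdhN, -0.071 for CRR41 and -0.014 for CRR21.

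The change of a probe moved with its brightness, and the 4 genes lay at different points of that trend. In the 10 bins, which hold the 3107 probes above 0 on every array, the median ran from -1.24 in the dimmest bin to 0.33 in the brightest bin on the log2 scale. NdhN was in bin 3 from the dimmest, with a median change of -1.11, and 71.6% of that bin had a lower change than NdhN. CRR41 and CRR21 were both in bin 7, with a median of -0.62, where 49.5% and 31.8% of probes had a lower change. PIFI, in the dimmest bin, had 7.72% of probes below it. Beside probes of like brightness, NdhN therefore had a smaller fall than most, CRR41 stood at the middle, and PIFI remained near the low end.

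**Figure D2:**
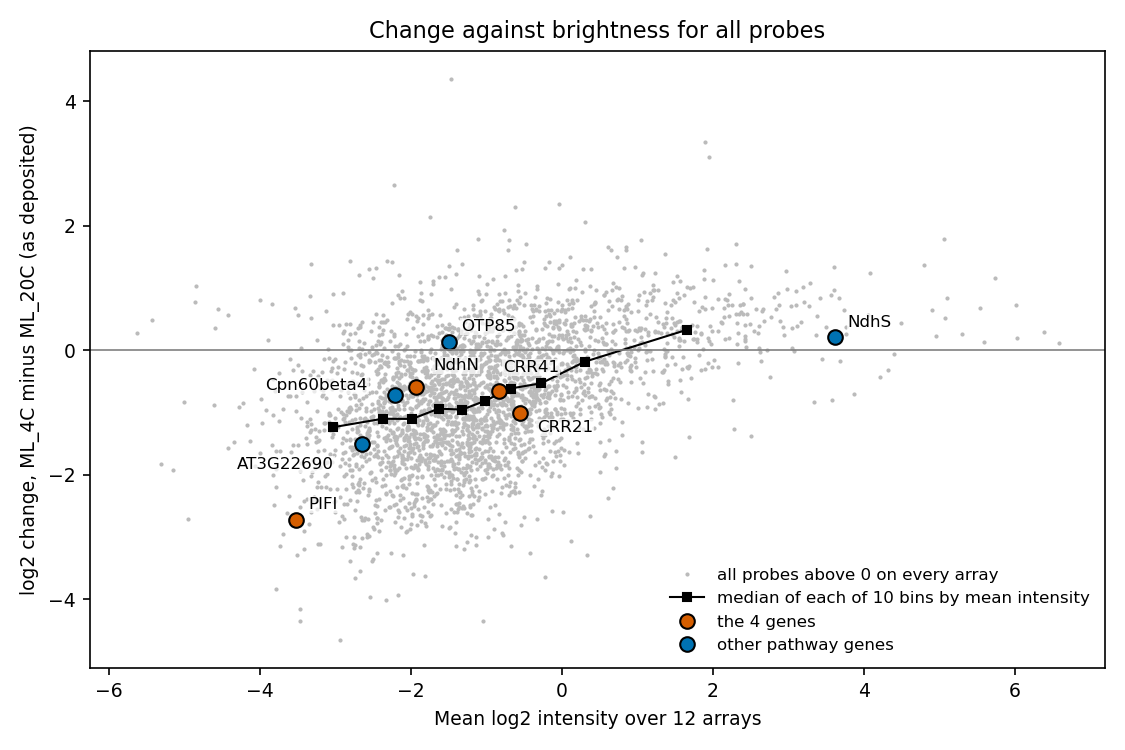
Log2 change, ML_4C minus ML_20C (vertical axis), against mean log2 intensity over 12 arrays (horizontal axis) for 3107 probes in grey, with the median of each of 10 bins in black, NdhN, CRR41, CRR21 and PIFI in orange and 4 other pathway genes in blue. The bin medians run from -1.24 to 0.33, NdhN lies above the line, CRR41 on it, CRR21 somewhat below and PIFI far below.

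Scaling the arrays to each other in other ways removed most of the general fall and left the 4 genes with different signs. The median change of all probes was 0.17 after median centring, 0.047 after quantile normalization and -0.00043 after cyclic loess. On the log2 scale NdhN was then at 0.32, 0.46 and 0.48, and CRR41 at 0.26, 0.11 and 0.099, so both changed sign. CRR21 stayed below 0, at -0.092, -0.36 and -0.39. PIFI also stayed below 0, at -1.81, -1.14 and -1.37. Signs under these scalings thus separated NdhN and CRR41 from CRR21 and PIFI.

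Over 12 arrays in limma, PIFI passed as lower under all 3 of these scalings, with adjusted p-values of 0.010 after median centring, 0.018 after quantile normalization and 0.029 after cyclic loess. CRR21 passed as lower after quantile normalization (adjusted p = 0.031) and cyclic loess (adjusted p = 0.012) but not after median centring (adjusted p = 0.50). NdhN passed as higher after quantile normalization (adjusted p = 0.028) and cyclic loess (adjusted p = 0.026), and CRR41 only after median centring, as higher (adjusted p = 0.049). The background for lower calls was 26.5% of probes after median centring, 30.4% after quantile normalization and 30.7% after cyclic loess, and for higher calls 39.5%, 32.1% and 30.8%. With pair means, 0 of the 4 genes passed under any of these 3 scalings, where 48.9%, 40.0% and 39.9% of probes passed in either direction. The unadjusted p over pair means was under 0.05 for PIFI after median centring (0.049 in limma) and for CRR21 after cyclic loess (0.047 in limma). For NdhN it was so after quantile normalization (0.048 in limma) and cyclic loess (0.034 in limma). At least the same 48.9%, 40.0% and 39.9% of probes were also under 0.05 without adjustment, so this level does not set the genes apart.

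**Figure D3:**
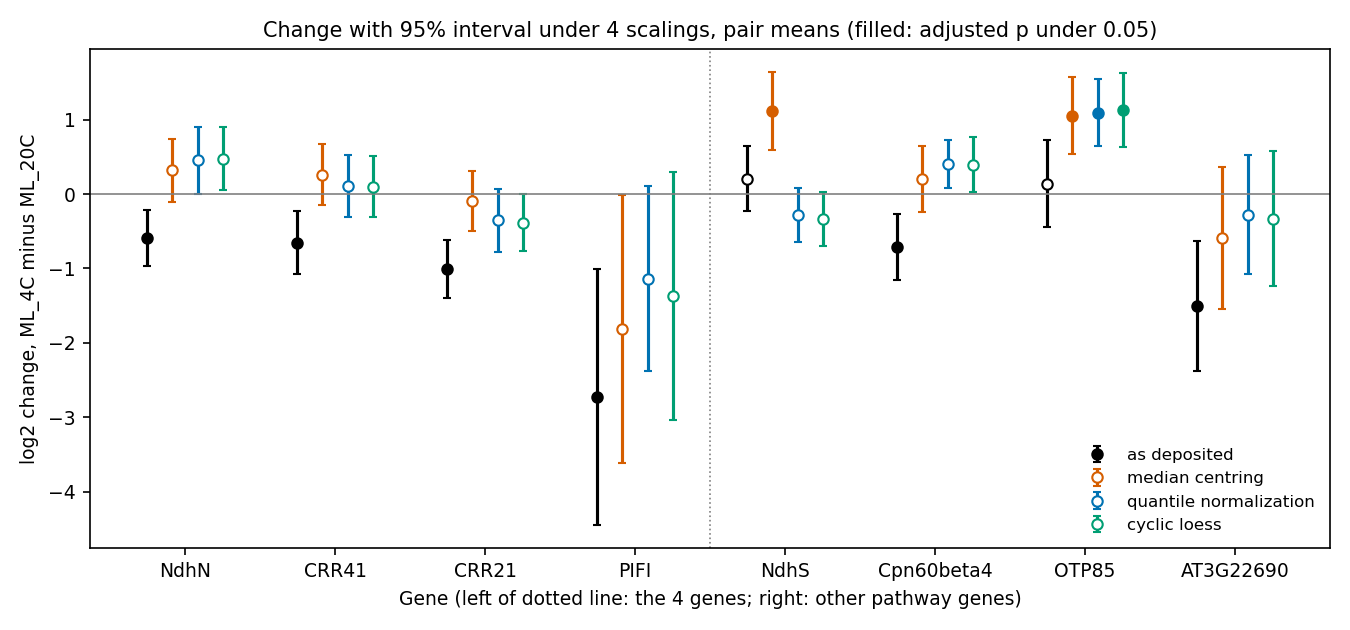
Log2 change, ML_4C minus ML_20C (vertical axis), with its 95% interval from the fit on pair means, for the 4 genes and 4 other pathway genes under 4 scalings of the arrays; filled points passed an adjusted p of 0.05. As deposited the 4 genes are all below 0 and filled, while under the other scalings NdhN and CRR41 lie above 0, CRR21 and PIFI below 0, and none of the 4 is filled.

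A ratio of 2 genes within an array does not move with a scaling factor of that array, so differences in change between the genes were tested in this form. The ratio of 2 different probes has no meaning as a level, and only its difference between the groups is given. All 6 pairs of genes were compared with an exact two-sided permutation test over 12 arrays, in which the smallest possible p is 0.0022, with p-values adjusted over the 6 pairs. PIFI changed more than each of the others, by -2.13 relative to NdhN, by -2.08 relative to CRR41 and by -1.72 relative to CRR21 on the log2 scale (exact permutation test, adjusted p = 0.0043 each). In each of these 3 pairs all 6 ML_4C ratios were below all 6 ML_20C ratios. The 3 pairs share the same PIFI values, so they are not separate results. How often other pairs of probes were split in this way was not counted. CRR21 changed by -0.35 relative to CRR41 (exact permutation test, adjusted p = 0.013). Its 95% interval over pair means was -0.60 to -0.11. The intervals given here and below are not adjusted for the 6 pairs.

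CRR21 and NdhN did not pass, with a difference of -0.41 (exact permutation test, adjusted p = 0.14) and a 95% interval of -1.12 to 0.29. NdhN and CRR41 differed in change by only -0.058, CRR41 minus NdhN (exact permutation test, adjusted p = 0.79). The interval of that difference, -0.79 to 0.67, still allows a gap as large as the change of either gene. After quantile normalization the difference between CRR21 and NdhN was -0.81 and passed (exact permutation test, adjusted p = 0.0032), and the PIFI differences were smaller, at -1.59, -1.25 and -0.78 relative to NdhN, CRR41 and CRR21. Without ML_4C arrays 1 and 2 they were -1.33, -1.29 and -0.91 as deposited (exact permutation test, adjusted p = 0.0095 each). Without ML_20C arrays 1 and 2, or 3 and 4, the adjusted p of all 3 was 0.05 in the exact permutation test and no longer under the threshold, and that of PIFI relative to CRR21 was 0.05 also without ML_20C arrays 5 and 6. The PIFI differences themselves ran from -2.30 to -1.71 when an ML_20C pair was left out. With pair means, 3 against 3, the smallest possible p is 0.10, so no pair could pass, and the 95% intervals of the PIFI differences reached above 0, with upper ends of 0.22, 0.13 and 0.53.

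**Figure D4:**
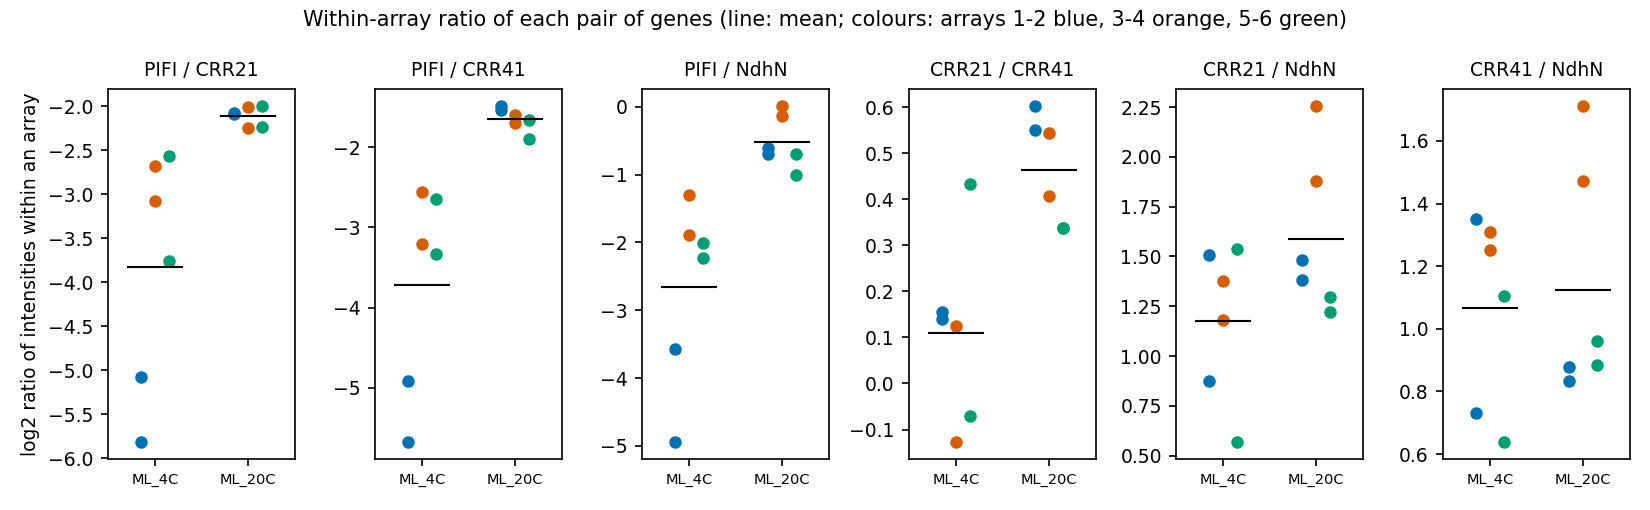
Log2 ratio of the intensities of 2 genes within each array (vertical axis, a separate range in each panel) for the 6 ML_4C and 6 ML_20C arrays, with the group mean as a line and array pairs in colour. The 3 ratios with PIFI are lower in ML_4C on every array, the ratio of CRR21 to CRR41 is lower on average, and the ratio of CRR41 to NdhN overlaps between the groups.

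Other genes of the pathway came from lists of 80 entries covering NDH subunits, NDH assembly, plastid RNA editing and processing, cyclic electron flow with chlororespiration, and mitochondrial alternative NAD(P)H dehydrogenases. Of these, 8 had a single-name probe, the 4 genes above and 4 more, and 6 further entries were found only on probes shared by several genes and were left out. In limma over 12 arrays 6 of the 8 were lower, 0 were higher and 2 did not pass, and pair means gave the same counts. Of all probes, 59.9% were lower over 12 arrays and 49.6% over pair means, so 6 of 8 is near the general fall. The 6 include all 4 genes above, which were chosen with earlier results of these data known. Among the 4 more, Cpn60beta4 and AT3G22690 were lower, and NdhS and OTP85 did not pass. The median log2 change of the 8 was -0.68, against -0.74 for all probes. By list, 1 of 2 NDH subunits, 2 of 2 assembly genes, 2 of 3 editing and processing genes and 1 of 1 gene of cyclic flow and chlororespiration were lower, and no mitochondrial dehydrogenase had a single-name probe.

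NdhS, the subunit near which ferredoxin docks, was bright, with pair means of 11.9, 12.9 and 15.1 in ML_4C against 13.3, 11.6 and 9.80 in ML_20C. The groups overlapped, with arrays 5 and 6 highest in ML_4C and lowest in ML_20C. Its log2 change of 0.21 did not pass (adjusted p = 0.11 in limma over 12 arrays, 0.35 over pair means), but other scalings called it in opposite directions. It passed as higher after median centring, at 1.12 (adjusted p = 1.76e-05 in limma over 12 arrays, 0.0082 over pair means). Over 12 arrays it passed as lower after quantile normalization, at -0.28 (adjusted p = 0.020 in limma), and cyclic loess, at -0.33 (adjusted p = 0.0073 in limma), but not over pair means. NdhN changed by -0.80 relative to NdhS within arrays (exact permutation test, p = 0.0043), a comparison chosen after the values were seen. That difference was 0.73 after quantile normalization (exact permutation test, p = 0.0022), so the order of these 2 subunits turned with the scaling.

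Cpn60beta4, a chaperonin subunit needed to fold the plastid-encoded subunit NdhH, averaged 0.172 ± 0.0200 in ML_4C and 0.280 ± 0.0440 in ML_20C (SD, n = 3 pairs each). Its log2 change of -0.71 passed over 12 arrays (adjusted p = 0.0034 in limma) and over pair means (0.019), and like NdhN and CRR41 it was above 0 under the other scalings, at 0.20, 0.41 and 0.40. AT3G22690, known as YS1, an editing factor for the plastid RNA polymerase transcript rpoB, averaged 0.101 ± 0.0413 in ML_4C and 0.272 ± 0.0531 in ML_20C. Its log2 change was -1.50 (adjusted p = 0.00020 in limma over 12 arrays, 0.014 over pair means), and it stayed below 0 under the other scalings without passing.

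OTP85, like CRR21 a pentatricopeptide repeat protein needed to edit ndhD transcripts, had pair means of 0.506, 0.331 and 0.308 in ML_4C and 0.324, 0.394 and 0.302 in ML_20C. The groups overlapped and the log2 change of 0.14 did not pass (adjusted p = 0.45 in limma over 12 arrays, 0.64 over pair means). It was -0.081 without ML_4C arrays 1 and 2. Relative to the median of all probes it stood at 0.88, and under the 3 other scalings it passed as higher over pair means, at 1.05, 1.09 and 1.12. The 2 ndhD editing factors therefore lay on opposite sides of the median change, CRR21 at -0.26 and OTP85 at 0.88, a difference that was not tested.

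The single-name genes most like each of the 4 were sought among 611 genes above 0 on all 12 arrays, by Pearson correlation of median-centred log2 intensity over the 12 arrays, which share their pairs and the 2 groups. PIFI had the closest matches, SIS, a salt-induced serine-rich protein (r = 0.98), AT1G32220 (r = 0.96) and AT5G62840 (r = 0.95). SIS averaged 0.119 ± 0.0607 in ML_4C and 0.389 ± 0.0990 in ML_20C. The log2 changes of these 3 were -1.88, -1.91 and -2.03. For CRR21 they were AT1G48570, AT1G29700 and AT5G66530 (r = 0.88, 0.82 and 0.80), with changes of -1.07, -1.06 and -0.93.

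For CRR41 the closest were AT5G62360, of the invertase and pectin methylesterase inhibitor family, AT3G19810 and AT3G44050 (r = 0.87, 0.87 and 0.84). Their log2 changes were -0.62, -0.49 and -0.34. NdhN had the least close matches, AT5G05400, LrgB, the plastid glycolate and glycerate transporter of photorespiration, and AT5G11650 (r = 0.79, 0.79 and 0.77). LrgB averaged 0.310 ± 0.0331 in ML_4C and 0.442 ± 0.0296 in ML_20C, a log2 change of -0.52. These correlations describe the arrays and carry no test. In bulk samples such as these, fewer cells of a type and less RNA per cell cannot be told apart.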

How the data were processed

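Per the labels, total RNA of 12 samples in 2 groups of 6 was measured on arrays. The table the authors deposited holds a linear intensity for each probe on each array. How it was scanned, background-corrected and scaled is not given in these sources. The mean of every array lay within 3.35% of the overall mean. Of 3439 probes, 692 had 1 gene name, 690 of them matched to the RefSeq table of TAIR10.1, 870 had several and 1877 had none here. The array's build is not stated, so no coordinates are given.

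Before log2, a value of 0 took the smallest positive value of its array. The test was limma 3.58.1 (lmFit, then eBayes) under R 4.3.3, two-sided, ML_4C minus ML_20C, with Benjamini-Hochberg adjustment over all 3438 features and calls counted over the 3378 not at 0 on all arrays. The limma and permutation code was tested on simulated data. Folds are ratios of geometric means. The number of arrays limits the precision. The genes named are the 4 genes, the other listed pathway genes with a single-name probe and, for each of the 4, the 3 most correlated genes. The members and lists were chosen with earlier results of these data known. Alternatives were 3 scalings, an offset of 0.0680, leaving out the 860 dimmest probes, the replicate number as a block, a trended robust variance, pair means, and leaving out each array pair.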

Additional observations from a re-analysis of the deposited data

How the results depend on the processing

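Dim values and 3 pairs per group limit these results, PIFI most of all. Over 12 arrays the calls of the 4 genes kept their direction and side of the threshold with an offset, with the replicate number as a block, with a trended robust variance and without each array pair. Of 3378 probes, 2041 were called lower with the offset, 1995 with the block and 2028 with the trended variance. Without an array pair 1893 to 2041 were, so the kept calls do not set the 4 genes apart. PIFI was among the 860 dimmest probes, so leaving these out gave it no value. The other 3 genes kept their calls, where 1555 of the 2578 remaining probes were called lower.

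Against 420 higher and 2022 lower probes, median centring gave 1335 and 896, quantile normalization 1083 and 1028, cyclic loess 1039 and 1038, and there were 232 and 1675 with pair means. With pair means under those scalings they were 1015 and 638, 658 and 692, and 646 and 703.

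In the same order of scalings, with the same values over 12 arrays and pair means, NdhN turned to 0.32, 0.46 and 0.48 and CRR41 to 0.26, 0.11 and 0.099. CRR21 lost its call after median centring, at -0.092, and with pair means also at -0.36 and -0.39, and PIFI lost its call with pair means at -1.81, -1.14 and -1.37. NdhS turned to -0.28 and -0.33 after quantile normalization and cyclic loess, Cpn60beta4 to 0.20, 0.41 and 0.40, and OTP85, at -0.081 to 0.28 without each array pair, to -0.081 without ML_4C arrays 1 and 2. The cause was not tested.

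Without each array pair in turn the log2 changes ran from -0.70 to -0.51 for NdhN, -0.76 to -0.52 for CRR41, -1.09 to -0.87 for CRR21 and -3.22 to -1.91 for PIFI. Leaving out array pairs in the fit on pair means, an alternative chosen after seeing the data, kept the call in 3, 2, 6 and 4 of 6 fits.

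The differences in change lost their calls with pair means and with the replicate block, at -1.72 (PIFI minus CRR21), -2.08 (PIFI minus CRR41), -2.13 (PIFI minus NdhN) and -0.35 (CRR21 minus CRR41). With pair means no exact p below 0.10 is possible. With the block the smallest possible exact p is 0.03125, which each PIFI difference reached, and the adjusted p-values were 0.0625 to 0.094. With pair means after quantile normalization they were -0.78, -1.25, -1.59 and -0.47, and after cyclic loess -0.99, -1.47, -1.85 and -0.49, the first also without a call over 12 arrays. CRR21 minus NdhN passed at -0.81, -0.86 and -0.45 after quantile normalization, cyclic loess and an offset. Without each array pair the 4 differences ran from -2.20 to -0.91, -2.50 to -1.29, -2.66 to -1.33 and -0.42 to -0.30. All 4 lost their calls, at an adjusted p of 0.05, without ML_20C arrays 1 and 2 and without 3 and 4, and PIFI minus CRR21 also without ML_20C arrays 5 and 6. CRR41 minus NdhN ran from -0.19 to 0.18, turning to 0.18 without ML_20C arrays 3 and 4 and to 0.039 without ML_4C arrays 5 and 6. NdhN minus NdhS turned to 0.73 and 0.81 after quantile normalization and cyclic loess.

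The replicate block, on numbers the labels share between the groups, gave 424 higher and 1995 lower probes. Same-numbered arrays correlated at -0.23 to 0.14 in their deviations from the group means, so the numbers were not taken to pair the samples.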
